A study of Mus musculus with 7 samples.

Results

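The comparison described here set naive macrophages given Pam3CSK4 for 3 h against naive macrophages left unstimulated for the same 3 h. The cells were macrophages grown from mouse bone marrow, and each condition was measured on 1 Affymetrix array hybridised with biotinylated cRNA made from 5 ug of total RNA. Both cultures were first kept for 24 h with no ligand, which is what naive means here, and 1 of them then received Pam3CSK4 at a dose labelled 1 mg/ml. No genotype, strain, sex or age was used here, and the cultures carried no stated genetic change. The other 5 of the 7 arrays in the series came from cultures given muramyl dipeptide (MDP, labelled 10 mg/ml), or given MDP or Pam3CSK4 in both periods. The values were probe set levels on the log2 scale. Each gene took the value of 1 probe set, the brightest on average over the 7 arrays of those annotated with its symbol alone, which gave 18193 genes from 45101 probe sets, all of which were kept. With 1 array in each group there was no replicate check, no error can be given to any difference, and no p-value was computed. Differences larger than the spread between cultures therefore cannot be told from smaller ones.

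Pam3CSK4 is a synthetic lipopeptide with 3 fatty acid chains that mimics the end of bacterial lipoproteins. It is bound outside the cell by a pair of the receptors Tlr2 and Tlr1, which recruit the adaptors Tirap and Myd88 and the Irak kinases. From there Traf6 and Map3k7 activate the IkB kinases, which free NF-kB from its inhibitors, and the MAP kinases, which act on AP-1 factors. In macrophages this pathway is known for cytokine and chemokine genes that are switched on within hours, and for feedback inhibitors that are switched on with them. The series used a 3-fold increase over unstimulated cells as its threshold of induction. Genes at least 3-fold higher with Pam3CSK4 are called raised below, and those at least 3-fold lower are called lowered. Values under an array's median were treated as background. Where 1 of a gene's values was that low, the difference was measured from the median instead, and is written as "at least" or "or lower".

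The labelled cell type was checked against its markers. All 11 measured macrophage markers lay above the array median in the unstimulated culture, and their summed level was 17.14 on the unstimulated and 17.18 on the Pam3CSK4 array on the log2 scale. The summed levels of the marker lists of other cells were 13.02 and 13.02 for neutrophils, 10.06 and 10.17 for T and NK cells, 10.90 and 10.80 for B cells, 12.05 and 11.87 for dendritic cells, 9.74 and 9.75 for stromal cells and 7.84 and 7.90 for erythroid and mast cells. Also above the array median in the unstimulated culture were 9 of 11 neutrophil, 5 of 9 T and NK cell, 4 of 8 B cell and 3 of 8 dendritic cell markers. So were 3 of 10 stromal and 1 of 7 erythroid and mast cell markers. None of the markers in these 6 lists differed by 2-fold, and what part such cells had in any result was not tested. Of the 11 macrophage markers 1 was past 3-fold, Mertk, which was lower (9.89 and 7.60). The 7 arrays fell into 2 families by the distribution of their values, with a mean difference between sorted values of 0.0344 to 0.0483 across families and of 0.00731 to 0.0191 within one. The unstimulated array was in the family of the arrays given MDP first, and the Pam3CSK4 array was in the other. Over all genes the median difference was 0, and by quartiles of the mean level it was 0.03, 0.05, -0.15 and -0.11 from the dimmest to the brightest, and the medians of lists of bright genes are read beside these. Of all 18193 genes, 8250 lay above the unstimulated level and 9059 below it. The 3 control probe sets for 18S ribosomal RNA had a median difference of 0.28. What the families stand for is not given in the labels, and in this pair family and treatment cannot be told apart.

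In the culture given Pam3CSK4, 232 genes (1.28% of all genes) stood 3-fold or more above the unstimulated culture, and 110 (0.605%) stood 3-fold or more below it. At 2-fold the numbers were 413 (2.27%) and 354 (1.95%). Counts of raised and lowered members in the lists below are read beside the 3-fold shares of 1.28% and 0.605%. A lone raised or lowered member is not read as a result about its list. The raised genes went further from their starting level than the lowered ones. Their median difference was 2.28 (4.87-fold), with 52 genes past 8-fold, 23 past 16-fold and 13 past 32-fold. The lowered genes had a median difference of -1.95 (3.86-fold), with 8 past 8-fold and 0 past 16-fold. They also started at different levels. Raised genes had a median of 7.59 without Pam3CSK4 and 10.5 with it, and 16, 64, 101 and 51 of them came from the 4 successive quartiles of unstimulated level. Lowered genes had a median of 9.49 without Pam3CSK4 and 7.46 with it, and 0, 4, 48 and 58 of them came from those quartiles. A gene near the floor of the array cannot show a 3-fold fall. Most genes differed little, and 89.8% lay within 1.5-fold of the unstimulated level. In 33 raised genes the unstimulated value was below the array median, and 220 of the 232 remained past 3-fold at the bound. For the lowered genes, 11 Pam3CSK4 values were below the median, and 103 of the 110 remained past it.

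**Figure D1:**
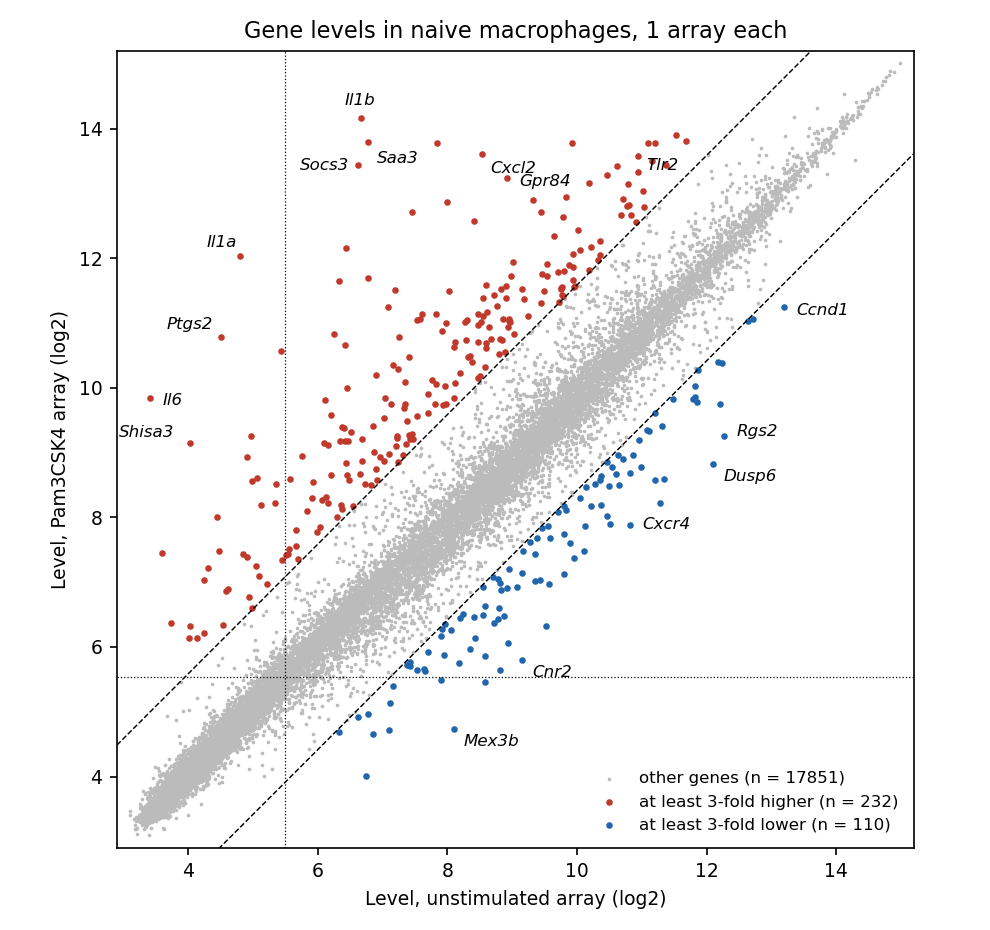
Level of each of 18193 genes on the unstimulated array (horizontal, log2) and on the Pam3CSK4 array (vertical, log2). Dashed lines mark a 3-fold difference and dotted lines the median of each array; the 232 raised genes reach further from the diagonal than the 110 lowered genes, and start across the whole range, whereas lowered genes start above the array median.

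Several genes with the largest differences encode secreted mediators. Il1b, the precursor of the fever-inducing cytokine interleukin-1 beta, was at 6.67 without Pam3CSK4 and 14.17 with it, a 181-fold difference. Il1a, its relative that acts also from within cells, was at 4.79 and 12.04, at least 92.9-fold. Saa3, an acute phase protein made by macrophages, was at 6.78 and 13.80, or 129.7-fold. The median over all 232 raised genes was 4.87-fold. Socs3, which blocks signalling from gp130 cytokine receptors, went from 6.63 to 13.43. Il6, itself a gp130 cytokine, was at 3.41, far inside the background range, and at 9.84 with Pam3CSK4. Ptgs2, the inducible cyclooxygenase, was likewise in the background range at 4.50 and reached 10.78.

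**Figure D2:**
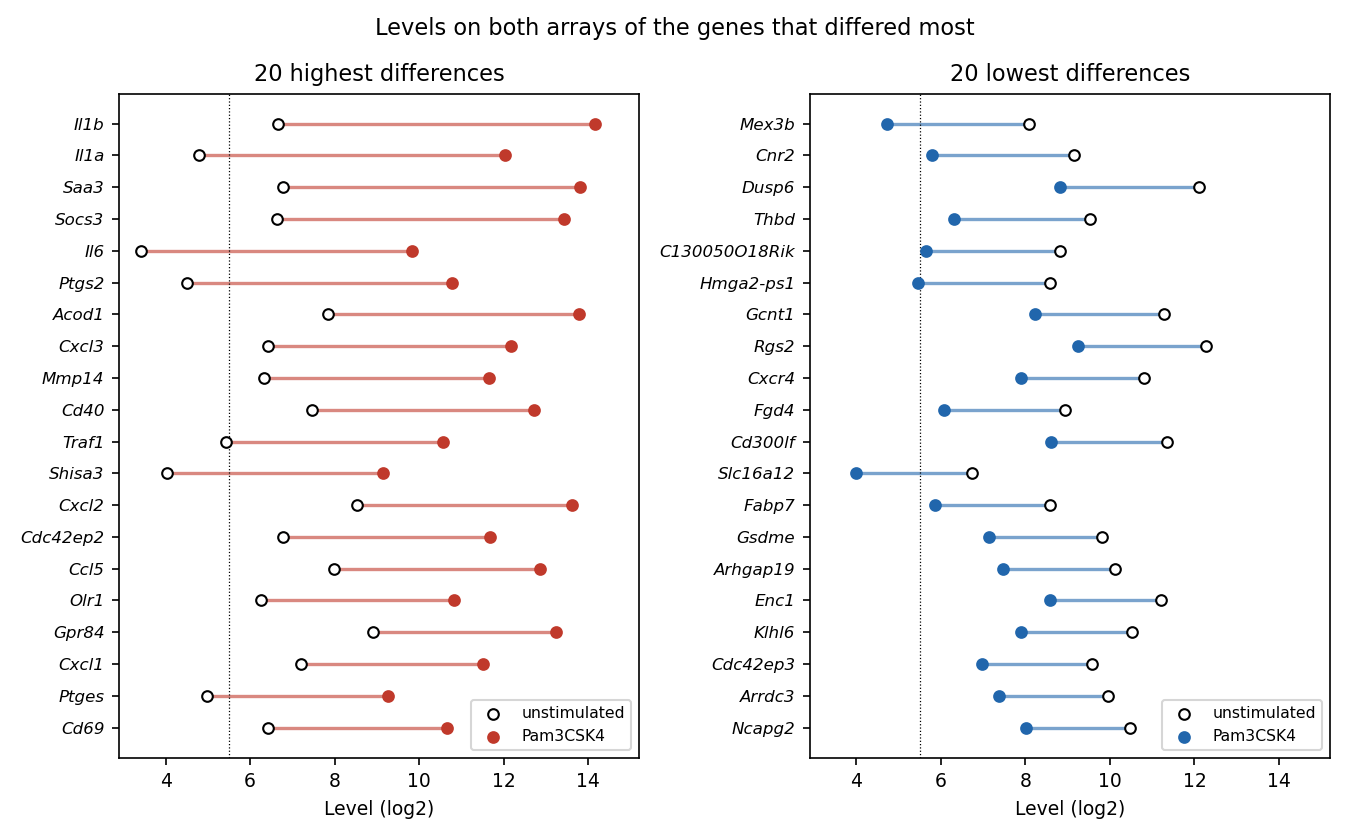
Levels (log2) on the unstimulated array (open circles) and the Pam3CSK4 array (filled circles) for the 20 highest and the 20 lowest differences among genes whose higher value lay above the array median, which is drawn as a dotted line for the unstimulated array. Raised genes end between 9.15 and 14.17, and lowered genes start between 6.74 and 12.27.

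The receptor pair for Pam3CSK4 was itself higher in the treated culture. Tlr2 was at 11.20 without and 13.78 with Pam3CSK4, a 5.96-fold difference. Tlr1, its partner for lipopeptides with 3 chains, was at 9.96 and 11.55, just past 3-fold, and fell just short of it with each array centred on its median (1.55) or with 32 added to the linear values (1.56). Tlr6, the partner for lipopeptides with 2 chains, was at 7.72 and 8.78, a difference of 1.06. Of the 23 measured genes of the proximal pathway 3 were raised and 0 lowered, and the remaining raised gene was Map3k8, a kinase that drives ERK signalling (1.83). The list median was 0.26. The adaptor Myd88 differed by 0.93, whereas Traf6 (0.01) and Map3k7 (-0.01) hardly differed. Among 12 other Toll-like receptors and cofactors 0 were raised and 1 was lowered. This was Tlr4, the lipopolysaccharide receptor, at 10.96 without and 9.20 with Pam3CSK4, a difference of -1.76, or -1.14 averaged over its probe sets. Tlr13, which senses bacterial ribosomal RNA, was also more than 2-fold lower (-1.33).

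Of the 61 gene lists examined, that of NF-kB and its inhibitors had the highest share of raised members, 7 of 10, and 0 were lowered. The list median was 2.33, against 0 over all genes. Nfkbiz, a nuclear IkB protein that helps switch on secondary genes such as Il6, was at 8.42 and 12.57, a 17.8-fold difference. Nfkbie (2.92), which holds NF-kB dimers in the cytoplasm, the precursor subunit Nfkb2 (2.75), the subunit Relb (2.52) and the nuclear cofactor Bcl3 (2.48) followed. Nfkbib was at 2.18, or 1.28 without less specific probe sets, and the subunit Rel at 1.64, short of 3-fold with 32 added (1.47). The remaining 3 members, Nfkbid (0.99), Nfkbia (0.83) and Rela (0.64), also lay above the unstimulated level. Nfkbia, the best known inhibitor, was at 13.36 in unstimulated cells and 14.18 with Pam3CSK4, and its difference was 1.65, past 3-fold, averaged over its probe sets.

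Among 17 genes that restrain NF-kB or cytokine signalling, 5 were raised and 1 was lowered. Besides Socs3 (112-fold) the raised ones were Zc3h12a, an RNase that degrades cytokine mRNAs (7.92 to 10.88), the ubiquitin-editing enzyme Tnfaip3 (10.77 to 12.81), its partner Tnip1 (10.79 to 13.14) and the SOCS relative Cish (1.66, or 1.44 with 32 added). Irak3, an Irak that lacks kinase activity and blocks the pathway, was at 1.58, just short of 3-fold, and Socs1 at 1.48. The lowered gene was Inpp5d, the phosphatase that removes a phosphate from the lipid product of PI3 kinase (-1.59, or -1.32 averaged over its probe sets). The list median was 0.34. Sigirr, a receptor that dampens signals of the interleukin-1 and Toll-like receptors, was at 7.83 on both arrays.

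**Figure D3:**
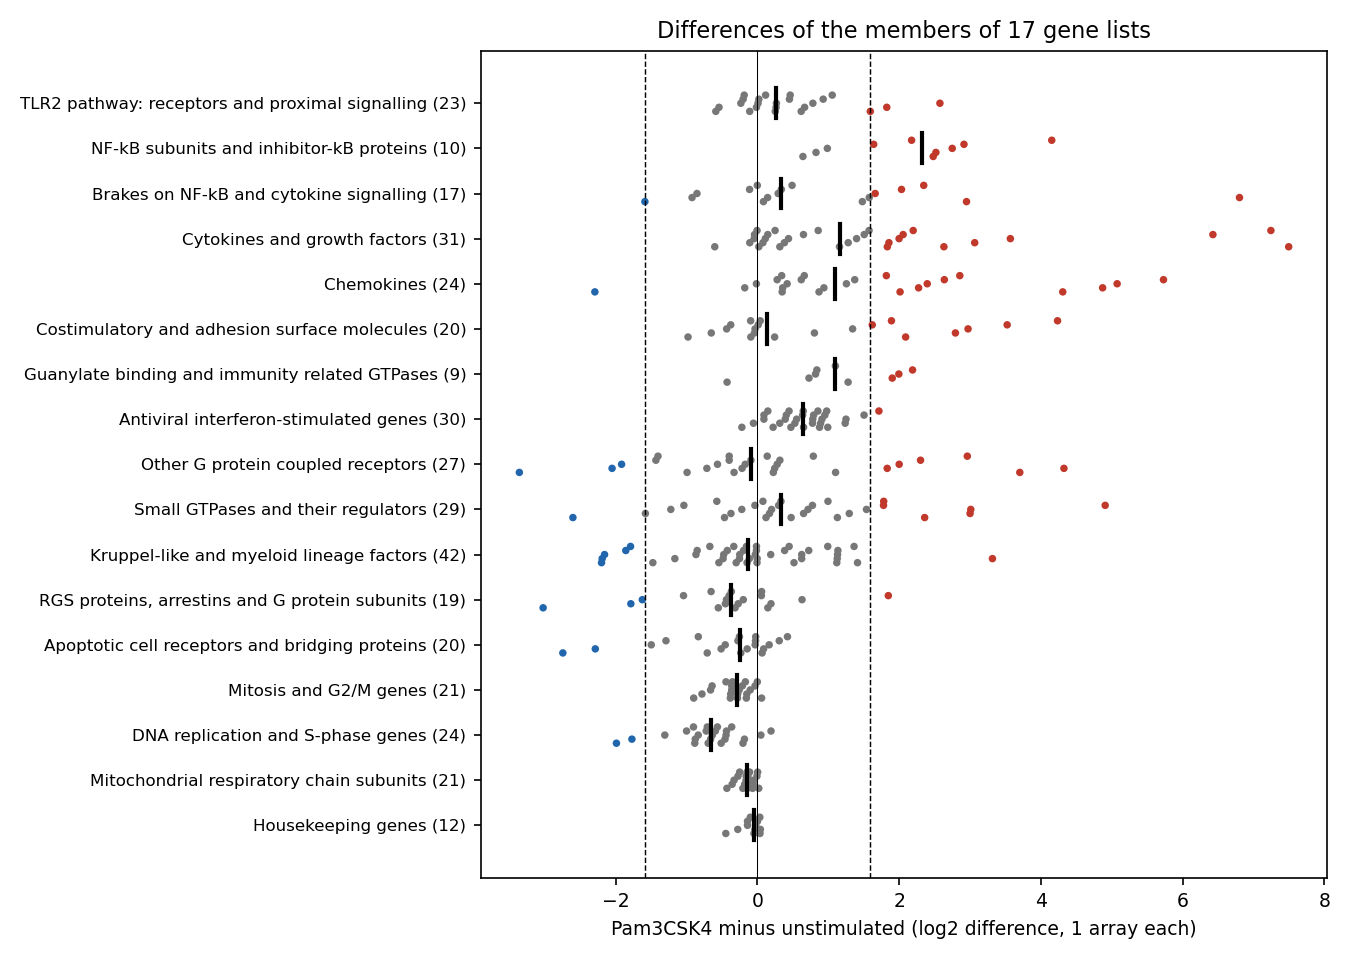
Differences (Pam3CSK4 minus unstimulated, log2) of the members of 17 gene lists, with the number of measured members in parentheses, members at least 3-fold higher in red and at least 3-fold lower in blue. Black bars mark list medians and dashed lines a 3-fold difference; NF-kB genes lie furthest to the right (median 2.33) and DNA replication genes furthest to the left (median -0.65).

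The promoters of the raised genes were examined for the motifs of the factors named above, since the pathway ends in NF-kB and AP-1. The 250 bases before each start of a gene were taken from RefSeq (GRCm38.p6), which held them for 185 of the 232 raised, 83 of the 110 lowered and 14452 of all genes, and both strands were searched. A gene with several promoters was counted if any of them held the motif. Several were searched for 46 of the 185 raised, 21 of the 83 lowered and 2661 of the 14452 genes, and the shares were not adjusted for this. The kB site, the motif of NF-kB, was found in 25 raised genes (13.5%), 2 lowered genes (2.41%) and 5.34% of all genes. The AP-1 site, TGANTCA, was found in 27 raised (14.6%), 6 lowered (7.23%) and 6.70% of all genes. The interferon response element (ISRE) was in 9 raised (4.86%), 3 lowered (3.61%) and 3.13% of all genes. The cyclic AMP response element (CRE), TGACGTCA, was in 3 raised, 0 lowered and 2.50% of all genes, and the CArG box, the motif of serum response factor, in 3 raised, 0 lowered and 1.43%. The TATA box, TATAAA, was in 29 raised (15.7%), 19 lowered (22.9%) and 10.5% of all genes, counted anywhere in the window. On the gene's strand, in all promoters and up to 50 bases past the start, 576 of 2949 matches began 35 to 25 bases before the start. A match is a description of the letters in this window, and shares were not tested.

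**Figure D4:**
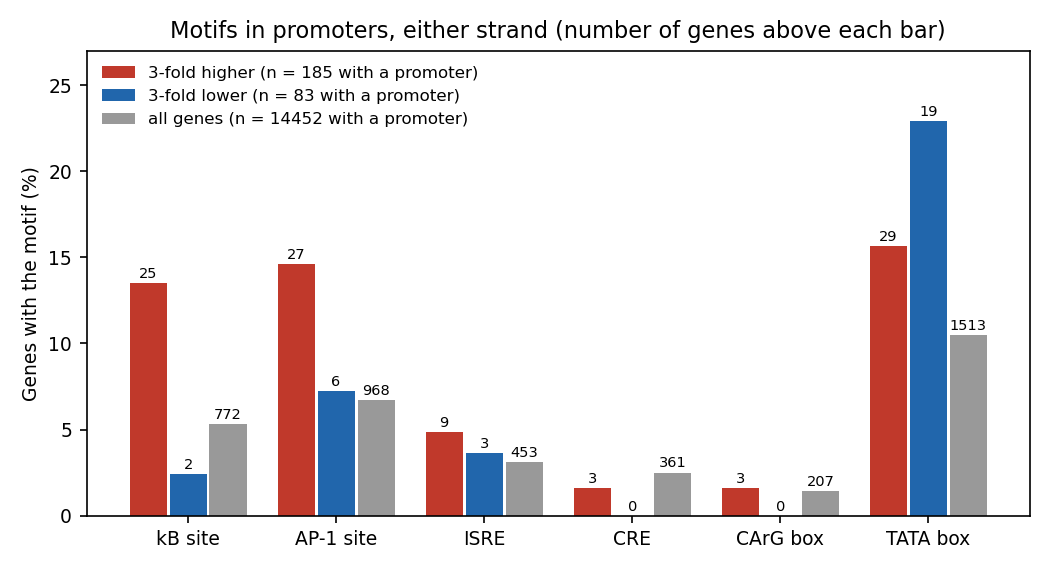
Share of genes (percent) for which any promoter, 250 bases before a start, holds each motif on either strand, for genes at least 3-fold higher (red), at least 3-fold lower (blue) and all genes (grey), with the number of genes above each bar. The kB and AP-1 sites have the tallest red bars relative to grey, and the TATA box its tallest bar among lowered genes.

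The neutrophil chemokine genes Cxcl1, Cxcl2 and Cxcl3 and the cytokine gene Il6, all on chromosome 5 and all among the 20 highest differences, are shown because a kB site lies within 100 bases of each start. The windows run 5′ to 3′ on the gene's strand, with the kB site in capitals, at chr5:90891145-90891234 on the plus strand, chr5:90903799-90903888 on the plus strand, chr5:90786001-90786090 on the plus strand and chr5:30013014-30013103 on the plus strand.
Cxcl1: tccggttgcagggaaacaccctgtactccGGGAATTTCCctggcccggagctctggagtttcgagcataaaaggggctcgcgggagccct
Cxcl2: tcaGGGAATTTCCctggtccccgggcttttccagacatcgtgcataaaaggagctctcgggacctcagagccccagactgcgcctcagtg
Cxcl3: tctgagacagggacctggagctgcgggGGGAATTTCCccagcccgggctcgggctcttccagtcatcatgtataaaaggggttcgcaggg
Il6: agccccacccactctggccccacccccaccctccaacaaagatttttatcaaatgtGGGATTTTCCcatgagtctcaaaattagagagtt
The 3 chemokine genes carry the same 10 letters, and Il6 a site that differs from them within the AT-rich centre. In the next 3 windows an AP-1 site is in capitals, in Il1a (chr2:129309973-129310042 on the minus strand), in the receptor gene Olr1 (chr6:129507166-129507235 on the minus strand) and in Serpinb2 (chr1:107511323-107511412 on the plus strand), whose levels are given in this account.
Il1a: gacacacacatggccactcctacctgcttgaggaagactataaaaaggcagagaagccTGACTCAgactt
Olr1: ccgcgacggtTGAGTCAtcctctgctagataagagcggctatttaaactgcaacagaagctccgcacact
Serpinb2: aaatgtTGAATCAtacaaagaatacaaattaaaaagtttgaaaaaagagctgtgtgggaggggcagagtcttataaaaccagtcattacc
An ISRE is in capitals in Saa3 (chr7:46715717-46715806 on the minus strand) and in Calhm6 (chr10:34127973-34128052 on the minus strand), a calcium homeostasis modulator family gene that was at 7.57 and 11.07 and was picked with its values in view.
Saa3: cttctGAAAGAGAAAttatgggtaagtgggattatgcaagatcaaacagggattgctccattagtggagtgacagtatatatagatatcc
Calhm6: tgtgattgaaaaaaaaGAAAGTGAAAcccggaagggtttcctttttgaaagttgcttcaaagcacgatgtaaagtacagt

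Of 31 measured cytokine and growth factor genes 11 were raised and 0 lowered, with a list median of 1.16. The products of the raised ones act at different places. Besides Il1a, Il1b and Il6, Tnf, the cytokine that activates endothelium, was at 9.32 without and 12.89 with Pam3CSK4, a 11.9-fold difference. Il10, the main anti-inflammatory cytokine of macrophages, was at 7.40 and 10.47, or 8.38-fold. Il1rn, the natural antagonist of the interleukin-1 receptor, was at 10.83 and 12.66. The antagonist was thus raised beside the cytokines it blocks. Csf3, the neutrophil growth factor, was raised (2.20), as were Il15, which sustains NK and memory T cells (2.06), and Tnfsf9, the ligand of the T cell receptor 4-1BB (1.86). Csf2, the growth factor of granulocytes and macrophages, was higher by at least 1.59 (1.35 with 32 added), and Il12b, the shared chain of interleukin-12 and interleukin-23, by at least 0.87, which is short of 3-fold at the bound. Pdgfb (1.51) and Csf1 (1.40) lay just below the threshold, and Vegfa (0.00) did not differ.

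Among 24 chemokine genes 10 were raised and 1 was lowered, with a median of 1.10. The neutrophil attractants Cxcl1, Cxcl2 and Cxcl3, which bind the receptor Cxcr2, were among the raised ones. Cxcl3 was at 6.43 and 12.16 (53.1-fold), Cxcl2 at 8.53 and 13.61 (33.7-fold) and Cxcl1 at 7.20 and 11.51 (19.8-fold), and the Cxcl1 difference was 6.66 without less specific probe sets in place of 4.31. Another ligand of that receptor, Cxcl5, was in the background range on both arrays (3.68 and 4.94). Ccl5, which draws T cells and monocytes, was at 7.99 and 12.86 (29.3-fold). The T cell attractant Cxcl10 was at 9.78 and 12.63, and its relative Cxcl11 was past 3-fold by its brightest probe set (1.82) and at 0.90 averaged over its probe sets. The monocyte attractants Ccl3 (10.94 to 13.58) and Ccl4 (10.94 to 13.33) were raised by 2.64 and 2.40. Ccl22, which draws regulatory T cells, was raised by 2.28, and Cxcl16, a membrane-bound chemokine that also binds oxidized lipoprotein, by 2.01. Several other chemokine genes hardly differed, such as the monocyte attractant Ccl2 (13.66 and 13.94) and Ccl6 (13.91 and 13.73). The lowered member was Cxcl14, at 8.42 and 6.13, a 4.90-fold lower level.

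The receptors for such signals went both ways. Of 14 chemokine and chemoattractant receptors 2 were raised, namely Ccrl2, which binds chemerin without signalling (2.80), and the formyl peptide receptor Fpr2 (6.41 to 9.18). Cxcr4, which holds cells in the bone marrow through Cxcl12, was lowered from 10.81 to 7.89, a 7.60-fold difference, and the monocyte receptor Ccr2 was at -1.04. Among 27 other G protein coupled receptors 6 were raised and 3 lowered. Gpr84, a receptor for medium-chain fatty acids, was at 8.92 and 13.24 (20.1-fold), and Hcar2, the receptor for nicotinic acid and ketone bodies, at 6.11 and 9.81. The prostaglandin receptor Ptger4 (2.30) and the lipid-responsive Gpr132 (2.96) were raised as well. The lysophosphatidic acid receptor Lpar1 (1.83) was past 3-fold but at 1.33 averaged over its probe sets, and the thrombin receptor F2r was higher by at least 0.63, which is short of it. The second cannabinoid receptor Cnr2 was among the lowest of all genes, from 9.15 to 5.79 (10.2-fold). The oxysterol receptor Gpr183 (-2.05, or -1.58 averaged over its probe sets, just short of 3-fold) and the lysophosphatidic acid receptor Lpar6 (-1.91) were lowered too. In the same cells, receptors of one ligand class lay on both sides, Lpar1 above and Lpar6 below.

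Several regulators of G protein signalling, which shorten signals from these receptors, were lower. Of 19 RGS proteins, arrestins and G protein subunits 1 was raised and 3 were lowered, 13 lay below the unstimulated level, and the median was -0.37. Over all genes 1.28% were raised and 0.605% lowered, and 9059 of 18193 lay below. The upper 2 quartiles of all genes by level had medians of -0.15 and -0.11. Rgs2 was at 12.27 and 9.25, an 8.12-fold lower level, Rgs1 at 11.82 and 10.03, and Rgs18 at 9.46 and 7.84. The Rgs18 difference of -1.62 fell short of 3-fold with the arrays centred on housekeeping genes (-1.49). The receptor kinase Grk3 was raised (1.85, or 1.40 without less specific probe sets), and the arrestin Arrb1 was at -1.04.

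Among 27 immediate early genes of the AP-1, EGR and NR4A families, 5 were raised and 0 lowered, with a median of 0.29. Batf, an AP-1 factor that pairs with Irf proteins, was at 8.60 and 11.58, a 7.90-fold difference. Junb (9.87 to 11.89, 4.05-fold) and the stress-induced Ier3 (11.02 to 13.03, 4.03-fold) were raised as well. Egr2 was at 1.73, or 1.57 with 32 added, and the AP-1 repressor Jdp2 at 2.82, or 0.54 without less specific probe sets. Immediate early genes peak and decay within the first hour of a stimulus, as background, and 3 h was the only time measured. Nr4a2 differed by -0.01, and Crem, a cyclic AMP responsive factor, was more than 2-fold lower (-1.22, or -0.71 averaged over its probe sets).

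Lineage and Kruppel-like factors held 1 raised and 5 lowered members of 42. At 2-fold 7 were higher and 7 lower, and the median of -0.13 was close to those of the upper 2 quartiles of all genes by level (-0.15 and -0.11). Cebpa, a factor that sets up the myeloid lineage, was at 12.24 without and 10.39 with Pam3CSK4, a 3.62-fold lower level. Pparg, the nuclear receptor of lipid handling, was at 9.08 and 6.93, Mef2c at 10.38 and 8.19, and the homeobox factor Hhex at 10.98 and 8.78. Id1, which blocks the DNA binding of helix-loop-helix factors, was at 12.18 and 10.39, while its relatives Id2 (13.45 on both arrays) and Id3 (0.00) did not differ. In the same list Cebpd, a relative of Cebpa, was higher by 1.36 (0.86 averaged over its probe sets), and Mef2a, a relative of Mef2c, was at -1.47. The raised member was the zinc finger gene Hivep3 (3.32), which was at 0.85 averaged over its probe sets.

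Among 18 interferon regulatory factors, JAKs and STATs 2 were raised, the kinase Jak2 (9.65 to 12.34, 6.44-fold) and Stat5a (8.47 to 11.13, 6.32-fold). Both transmit signals of growth factors such as Csf2. Irf1 was just short of 3-fold (1.55), and Irf8 (-0.01) and Irf5 (-0.02) did not differ. Antiviral interferon-stimulated genes were higher as a list and by small steps. Of 30, 28 lay above the unstimulated level, as did 8250 of all 18193 genes. The list median was 0.65, but 1 was past 3-fold, the ADP-ribosyltransferase Parp14 (1.72, or 1.51 averaged over its probe sets). Ifit1 (1.51), Mx1 (1.25) and Ifit2 (1.24) were the next. Of 9 guanylate binding and immunity related GTPases, which attack vacuoles that hold microbes, 3 were raised, Gbp6 (6.68 to 8.87), Gbp3 (8.94 to 10.94) and Gbp2 (10.36 to 12.26), and the median was 1.10.

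TNF receptors, TRAF adaptors and death adaptors held 6 raised and 0 lowered of 22. Cd40, through which T cells activate macrophages, was at 7.45 and 12.71 (38.2-fold), and Traf1, an adaptor of Cd40 and of the second TNF receptor, at 5.43 and 10.57 (at least 33.5-fold). The death receptor Fas (6.51 to 9.31) was raised together with Cflar (10.21 to 12.17), which blocks caspase-8 at such receptors. The second TNF receptor Tnfrsf1b was raised (2.07), whereas the first, Tnfrsf1a, was at 11.51 and 11.54. The ubiquitin ligase Birc3 was at 2.09, or 0.72 without less specific probe sets. In the BCL2 family and caspases 0 of 15 were raised or lowered, with Bcl2 at -1.50, or -0.76 averaged over its probe sets, and the death promoter Bcl2l11 at 1.03. Of 15 inflammasome and NOD-like receptor genes 3 were raised, Nlrp3 (9.80 to 11.80), the pyrin gene Mefv (7.35 to 10.09) and Casp4, the sensor caspase of intracellular lipopolysaccharide (10.02 to 12.43). The shared adaptor Pycard was at 0.26, the caspase that cleaves the Il1b precursor, Casp1, at 0.71, and Aim2, the DNA sensor, at -0.17.

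On the cell surface, genes of T cell costimulation and adhesion held 7 raised and 0 lowered of 20. Cd69, an early activation marker, was at 6.42 and 10.65 (18.8-fold), Icosl, the ligand of the T cell receptor Icos, at 7.26 and 10.78, and Cd83, a maturation marker, at 10.18 and 13.16. The Icosl difference of 3.52 was 1.82 averaged over its probe sets. Icam1, which binds integrins of leukocytes, was at 10.62 and 13.42, and Cd274, which restrains T cells through PD-1, at 8.59 and 10.68. Slamf1 (1.89, or 0.91 averaged over its probe sets) and Vcam1 (1.62, or 1.44 with 32 added) were past 3-fold under some settings only. Cd80, a main ligand of Cd28, did not differ (-0.03). Presentation genes were flat by comparison. MHC class II held 0 raised or lowered of 10, with H2-Ab1 at 0.46, and MHC class I and immunoproteasome genes 0 of 12, with the peptide transporter Tap1 at 0.96, or 0.52 averaged over its probe sets.

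Among uptake receptors, Olr1, which binds oxidized lipoprotein, was at 6.25 and 10.83 (23.9-fold), and Marco, which binds bacteria, at 6.21 and 8.66 (5.47-fold), and these were the 2 raised of 14 scavenger receptors. Msr1 (0.61) and Cd36 (-0.59) lay on opposite sides of their unstimulated levels. Cd163 (-0.87) and Colec12 (-0.85) were the lowest. Of the 14, 9 lay below the unstimulated level, as did 9059 of all 18193 genes. Their median of -0.17 was close to those of the upper 2 quartiles of all genes by level (-0.15 and -0.11). Among 16 C-type lectin receptors the 1 raised was Clec4e, the receptor of mycobacterial cord factor, at 9.93 and 13.78 (14.4-fold), while the mannose receptor Mrc1 was at -0.35 and the beta-glucan receptor Clec7a at -0.02. Receptors and bridging proteins for apoptotic cells held 0 raised and 2 lowered of 20, 15 lay below the unstimulated level, and the median was -0.24. Over all genes 0.605% were lowered, 9059 of 18193 lay below, and the upper 2 quartiles by level had medians of -0.15 and -0.11. Mertk, the kinase receptor that drives the engulfment of dead cells, was at 9.89 and 7.60, a 4.88-fold lower level, and Cd300lf, a receptor of phosphatidylserine and ceramide, at 11.34 and 8.60, 6.70-fold lower. Havcr2, another phosphatidylserine receptor, was at -1.50. Fc receptors and TREM proteins held 0 raised or lowered of 17, with the inhibitory Fcgr2b furthest at 1.28, or -0.03 without less specific probe sets.

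Of 14 genes of the prostaglandin and leukotriene pathway 2 were raised, and they act in sequence. Ptgs2 makes prostaglandin H2 from arachidonic acid, and Ptges turns it into prostaglandin E2. Ptgs2 was higher by at least 38.9-fold and Ptges, at 4.97 and 9.26, by at least 13.6-fold. The phospholipase that frees arachidonic acid, Pla2g4a, was at 0.93, the thromboxane synthase Tbxas1 at -0.50, and the list median was -0.15. Another prostaglandin E2 synthase, Ptges2, was at 0.03. Of the receptors for this lipid, Ptger4 was raised, as given above, and Ptger2 was at -0.09. Among 13 enzymes of arginine, nitric oxide, polyamines and itaconate 3 were raised. Acod1, which makes the antibacterial metabolite itaconate, was at 7.85 and 13.78 (61.0-fold), the arginine transporter Slc7a2 at 5.58 and 8.59, and the mitochondrial arginase Arg2 higher by at least 1.89. The Slc7a2 difference of 3.01 was 1.73 averaged over its probe sets. The inducible nitric oxide synthase Nos2 was at 5.96 and 6.86, a difference of 0.90, and Gch1, which supplies its cofactor, was at 1.32. Of 16 acute phase and antimicrobial genes 3 were raised, Saa3, the siderophore-binding Lcn2 (7.83 to 10.06) and ceruloplasmin, Cp (1.80, or 1.20 averaged over its probe sets). Lysozyme, Lyz2, was at 14.82 on both arrays. Complement components held 0 raised or lowered of 11.

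Genes of clotting and fibrinolysis went both ways, with 4 raised and 2 lowered of 16. Serpinb2, an inhibitor of plasminogen activators that stays mostly inside the cell, was at 4.90 and 8.93, at least 10.8-fold higher. The protein C receptor Procr was raised (7.13 to 9.75), and thrombomodulin, Thbd, with which it activates protein C on the same pathway, was lowered from 9.52 to 6.32 (9.17-fold). Of the plasminogen activators, Plat was higher by at least 1.53, which is short of 3-fold, and Plau was at -1.98, or -1.49 with 32 added. Factor X, F10, was raised (1.90). Matrix remodelling genes held 4 raised and 0 lowered of 24. Mmp14, a membrane-bound protease that activates other proteases, was at 6.32 and 11.65 (40.2-fold), the inhibitor Timp1 at 8.12 and 10.70, and the collagenase Mmp13 at 10.90 and 12.56. Lox, which crosslinks collagen, was at 1.75, or 0.86 averaged over its probe sets. Of 14 integrins 2 were raised, Itgal, the LFA-1 chain that binds Icam1 (8.84 to 10.74), and Itgb8, a chain of the integrin that activates TGF-beta, which was in the background range at 4.45 and reached 8.01.

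Factors that act on mRNA held 4 raised and 1 lowered of 22. Zfp36, which binds AU-rich elements of cytokine mRNAs and speeds their decay, was at 10.70 and 12.92, the RNase family member Zc3h12c at 6.45 and 9.99 (11.6-fold), and Btg2, which recruits deadenylases, at 7.93 and 9.73. With Zc3h12a, these are 2 members of the Zc3h12 family. Zfp36l2, a relative of Zfp36, was on the other side (-1.39, or -0.64 averaged over its probe sets). Mex3b, an RNA-binding ubiquitin ligase, was the lowered one, from 8.10 to 4.73, -2.55 or lower. Of 18 MAP kinase phosphatases and Sprouty proteins 1 was raised and 1 lowered. Dusp2, a nuclear phosphatase, was at 6.90 and 10.19 (9.80-fold), and Dusp6, which acts on ERK in the cytoplasm, at 12.10 and 8.82 (9.74-fold lower). Dusp1, which limits p38 and JNK signalling, was just short of 3-fold (1.57), and the ERK pathway inhibitors Spry2 (-1.34, or -0.63 averaged over its probe sets) and Spred2 (-0.99, or -0.35) lay on the side of Dusp6. Their relatives Spred1 (0.68), Spry1 (0.47) and Spry4 (0.09) lay on the other side, and 11 of the 18 list members were above the unstimulated level.

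The transcript Mir155hg, from which the microRNA miR-155 is cut, was in the background range at 3.59 and reached 7.45 with Pam3CSK4, at least 3.87-fold higher, and was picked with its values in view. The mature microRNA itself was not measured by these probe sets. Its RefSeq sequence, at chr16:84714143-84714165 on the plus strand of GRCm38.p6 and inside the host transcript, is shown with the seed, bases 2 to 8, in capitals, because its host transcript was raised and the seed is what pairs with target mRNAs.
mmu-miR-155-5p: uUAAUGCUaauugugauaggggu
No target site was searched for.

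Small GTPases and their regulators held 6 raised and 1 lowered of 29, with a median of 0.33. Cdc42ep2, an effector of Cdc42 that shapes the actin cortex, was at 6.78 and 11.69 (30.0-fold), whereas its relative Cdc42ep3 was lowered from 9.57 to 6.97 (6.07-fold). Another member, Cdc42ep4, was raised (1.78). Rhou (6.38 to 9.39), Rnd3 (7.33 to 9.69) and Rnd1 (at least 1.97) are small GTPases whose activity depends mainly on their amount, and all were raised, as was the Rap activator Rapgef2 (1.78). The haematopoietic Rhoh was at -1.58, just short of 3-fold lower, or -0.65 averaged over its probe sets. Of 18 phosphoinositide signalling genes 0 were raised and 1 lowered, the Inpp5d already named.

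The DNA replication genes were lower as a list and by small steps. Of 24 DNA replication and S-phase genes 22 lay below the unstimulated level, with a median of -0.65, against -0.11 for the brightest quartile of all genes. The licensing factor Cdc6 was at 7.12 and 5.13, -1.58 or lower, which is just short of 3-fold at the bound. Cyclin E2, Ccne2, was at 7.17 and 5.40, -1.62 or lower. Both were past 3-fold by the deposited values and not with 32 added (-1.35 and -1.24). Cdt1, the partner of Cdc6, was at 12.37 and 11.07, Rrm2, a subunit of the enzyme that makes deoxynucleotides, at 9.24 and 8.25, and the helicase subunits Mcm6 and Mcm3 at -0.90 and -0.88. Of 21 mitosis genes 19 lay below the unstimulated level and 0 were lowered, with a median of -0.28. This is read beside -0.15 and -0.11 for the upper 2 quartiles of all genes by level, and 9059 of all 18193 genes lay below. The respiratory chain list also had 19 of 21 below (median -0.14), so the count of mitosis genes below is not read as a result of its own. Among D cyclins, CDK inhibitors and Gadd45 genes 1 of 17 was raised and 2 were lowered. Gadd45b was at 9.82 and 12.94 (8.65-fold) and its relative Gadd45a at 10.65 and 8.49 (4.46-fold lower). A further relative, Gadd45g, was on the side of Gadd45a at 9.76 and 8.23 (-1.53, short of 3-fold). Cyclin D1, Ccnd1, which growth factors such as Csf1 sustain, was at 13.19 and 11.25 (3.85-fold lower), while the CDK inhibitor Cdkn1a (1.27) and Ccnd2 (1.08) were more than 2-fold higher.

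Among metabolic lists, 2 of 23 glycolysis and hypoxia genes were raised, against 1.28% of all genes, Ndrg1 (10.33 to 11.97) and Pfkfb3, which makes an activator of glycolysis (1.68, or 1.56 averaged over its probe sets). The glucose transporter Slc2a1 was at 0.85, and Pgk1 did not differ (0.00). Another glucose transporter family member, Slc2a6, was raised from 7.54 to 11.05 (11.4-fold), and was 1 of 3 raised among 24 solute carriers. The others were the iron transporter Slc11a2 (2.01, or 1.32 without less specific probe sets) and the cystine transporter Slc7a11 (at least 1.75, or 1.42 averaged over its probe sets). The iron exporter Slc40a1 lay on the other side (-1.15). In the sterol and fatty acid list 0 of 23 were raised and 1 was lowered, Mylip, which degrades the lipoprotein receptor (11.11 to 9.33). Ch25h, which makes 25-hydroxycholesterol, was at 1.47. Respiratory chain subunits held 0 raised or lowered of 21, with a median of -0.14, against -0.15 and -0.11 for the upper 2 quartiles of all genes by level.

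Among stress and defence genes, manganese superoxide dismutase, Sod2, was at 11.53 and 13.90 (5.19-fold), and was the 1 raised of 9 NADPH oxidase and superoxide dismutase genes. NRF2 antioxidant genes held 0 of 13 past 3-fold, the unfolded protein and integrated stress response list 0 of 18, and the zinc and iron list 1 of 13, the zinc importer Slc39a14 (2.08, or 1.44 averaged over its probe sets), with metallothionein, Mt2, just short of 3-fold (1.58). Of 9 heat shock genes 2 were past 3-fold, Hspa1b (3.52) and Hspa1a (2.52), which are near-identical copies whose probes may share signal and are therefore uncertain one by one. Dnajb1, their partner, did not differ (0.00). Among lysosomal genes 1 of 25 was raised, against 1.28% of all genes, the tartrate-resistant phosphatase Acp5 (8.55 to 11.38). Of 18 other cytokine receptors 1 was raised, Il15ra (6.44 to 8.83), which presents the product of the raised Il15 gene. Of 19 chromatin modifiers 1 was raised, the histone demethylase Kdm6b (1.74, or 1.32 averaged over its probe sets). The TGF-beta and BMP (20), Notch (13), colony stimulating factor receptor (7) and housekeeping (12) lists held 0 raised or lowered genes.

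About as many raised genes lay outside the lists as inside, 115 against 117, and most lowered genes lay outside, 83 of 110. Among the raised ones outside was Shisa3, a membrane protein that holds back Wnt and FGF receptors, at 4.03 and 9.15 (at least 12.5-fold). The next genes were picked with their values in view. Pde4b, the phosphodiesterase that degrades cyclic AMP, was at 7.09 and 11.25, a difference of 4.16, or 2.02 averaged over its probe sets. Malt1, a protease of NF-kB signalling from C-type lectins and antigen receptors, was at 8.03 and 11.50, a difference of 3.46. The growth factor receptor Met (2.55), the endothelin receptor Ednrb (2.38), caveolin, Cav1 (2.71), and the kinase Pim1 (2.69) were also raised. Among the lowest genes outside the lists, Gcnt1, which branches O-glycans of adhesion ligands, was at 11.28 and 8.22 (8.34-fold lower), the RIKEN clone gene C130050O18Rik at 8.81 and 5.64, the pseudogene Hmga2-ps1 at 8.58 and 5.46 (-3.04 or lower), the arrestin-like Arrdc3 at 9.96 and 7.36, and Enc1, a Kelch protein, at 11.21 and 8.58. The condensin subunit Ncapg2 (-2.45), the fatty acid binding protein Fabp7 (-2.73) and Klhl6 (-2.61) were lowered as well. Fgd4, an activator of Cdc42, was at -2.88, or -1.25 averaged over its probe sets, the pore-forming Gsdme at -2.68, or -1.58, and Arhgap19 at -2.64, or -1.26 without less specific probe sets. Slc16a12 was -1.20 or lower, short of 3-fold at the bound.

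A pair of other arrays gave Pam3CSK4 for 3 h against another treatment and shared no array with the comparison above. The choice of each gene's probe set, however, used all 7 arrays, these included. These cultures had both received MDP for 24 h, and then Pam3CSK4 or MDP again. The reference there was not unstimulated, so the values differ in meaning, and they also share the series' processing. On this pair 1.3% of all genes reached 3-fold on the higher side and 0.385% on the lower side. Of the 232 raised genes, 232 were higher there too (44.7% of all genes were), all at least 2-fold (2.41% of all genes), and 204 (87.9%) at least 3-fold. Of the 110 lowered genes, 110 were lower, 106 at least 2-fold (1.42% of all genes) and 64 (58.2%) at least 3-fold. Over all 18193 genes 10056 were not higher there. The medians were 2.26 and -1.72. The 4 lowered genes short of 2-fold were Rgs1 (-0.93), Lyzl4 (-0.86), Tox2 (-0.51) and Dennd2c (-0.18 or lower, counted from the array median). Both arrays of this pair were in the same family by distribution.

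**Figure D5:**
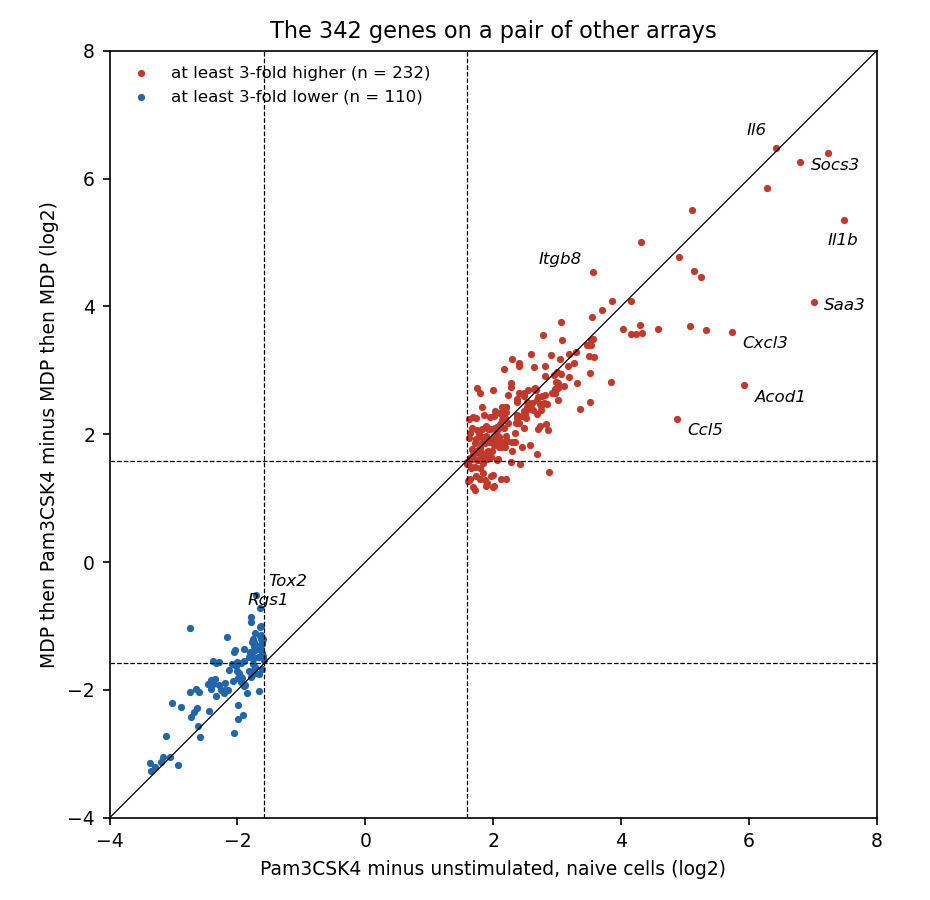
Difference with Pam3CSK4 in naive cells (horizontal, log2) and in cells given MDP for 24 h, against MDP again (vertical, log2), for the 232 raised (red) and 110 lowered (blue) genes. Dashed lines mark 3-fold and the solid line equal differences; all 342 genes have the same sign on both axes, and Acod1, Saa3, Ccl5, Il1b and Cxcl3 lie furthest below the line.

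Individual genes differed between the pairs in size. Socs3 was at 6.26 on the second pair against 6.80 in naive cells, and Dusp6 at -3.20 against -3.28. Il6 was in the background range on both reference arrays (3.41 and 4.31) and at 9.84 and 10.79 with Pam3CSK4. Acod1 was at 2.77 against 5.93, Ccl5 at 2.24 against 4.87 and Saa3 at 4.07 against 7.02. In these 3 genes the levels with Pam3CSK4 were closer to each other than the reference levels were. With Pam3CSK4 they were 13.78 and 14.01 for Acod1, 12.86 and 13.66 for Ccl5 and 13.80 and 14.05 for Saa3. The reference levels were 7.85 and 11.24, 7.99 and 11.42 and 6.78 and 9.98. By list, the NF-kB genes had 7 of 10 past 3-fold higher on the second pair and a median of 2.18, and DNA replication genes had 24 of 24 below 0 and a median of -0.59. Antiviral genes had a median of 0.44, with 29 of 30 above 0, and RGS proteins, arrestins and G protein subunits had a median of -0.17, with 13 of 19 below 0. Mitosis genes had a median of -0.32, with 19 of 21 below 0. These counts are read beside all genes on this pair, of which 8137 of 18193 lay above 0. The upper 2 quartiles of all genes by level had medians of -0.06 and -0.04 there.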

How the data were processed

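Gene expression was measured in mouse bone marrow derived macrophages on 7 Affymetrix arrays, 1 per group, and every label carries the replicate number 2. The deposited values are log2 expression per probe set, which the authors made with RMA (affy), per the submitters' processing notes. Versions and the set of arrays normalized together are not given in the sources used here. The values ran from 2.97 to 15.0 on the arrays compared, with none missing, and were not transformed again.

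Of 45101 probe sets, 64 were controls, 34945 had 1 symbol in the platform annotation, 932 had several and 9160 had none, while 34741 of the single-symbol ones matched RefSeq. Each of 18193 genes took its brightest probe set on average over the 7 arrays, and 9010 genes had more than 1. The difference is the log2 value with Pam3CSK4 minus that of the unstimulated array, with a threshold of 3-fold. With 1 array per group no test was possible, and precision is limited by the number of arrays.

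The 61 lists held 1105 genes, of which 1011 were measured and the other 94 are not analysed here. The comparison, its members and the lists were chosen with earlier results of these data known. Named genes are the 20 highest and 20 lowest whose higher value lay above the array median, and every list member past 3-fold. Some further list members are named too. Their choice did not follow a fixed order of size, and they are read as picked with their values in view, without a mark on each. Genes from outside the lists that were picked in this way are marked. Alternatives were other centring, cyclic loess (span 0.7, 3 iterations), averaging each gene's sets of probes, dropping less specific ones, filters on level, adding 32 to the linear values, other thresholds, and quantile normalization of the 7 arrays, which was added after the data were seen. Some alternatives are named beside a gene where they end its 3-fold call or move it by over 1.5 times. The counting step was run on simulated data whose noise came from the difference between the arrays given Pam3CSK4 first. Those arrays were in the same family, with a correlation of 0.9987 over genes. The pair compared was not (0.983), so this run cannot tell the error of the calls. Promoters and the microRNA came from RefSeq (GRCm38.p6). Python 3.11.15 with numpy 2.4.6, pandas 2.3.3 and matplotlib 3.10.9, and R 4.3.3 with limma 3.58.1, were used.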

Additional observations from a re-analysis of the deposited data

Results flagged for a closer look

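Some signal lay in probe sets that the comparison did not use, because they carry no gene symbol or several. Among 9160 probe sets with no symbol, 33 (0.360%) stood 3-fold or more higher with Pam3CSK4 and 14 stood 3-fold or more lower. Among 932 with several symbols, 6 stood 3-fold or more higher and 3 lower. The highest without a symbol was 1423954_at, at 7.55 without and 11.79 with Pam3CSK4, a difference of 4.24, and on the arrays given MDP first it was at 10.66 with MDP and 12.71 with Pam3CSK4. Next was 1437111_at with a difference of 3.51. The lowest were 1455090_at (-2.34) and 1435672_at (-2.30). Their genes were not identified, and with 1 array per group no array could be compared with replicates of its own group.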

How the results depend on the processing

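With 1 array per group no error could be given, and no replicate could be left out. No paired analysis was possible because each group has 1 array. The counts of genes at least 3-fold higher and lower, 232 and 110, were 227 and 117 with each array centred on its median, 265 and 85 centred on housekeeping genes, 257 and 94 with cyclic loess, 245 and 100 with quantile normalization, 191 and 73 when a gene's probe sets were averaged, 192 and 98 without less specific probe sets, 202 and 88 with the higher array above its 75th percentile, and 198 and 75 after 32 was added on the linear scale. Moving the threshold gave 413 and 354 at 2-fold, and 164 and 48 at 4-fold. Centring on housekeeping genes moved the median of all genes by 0.14. Of the 232 genes 161, and of the 110 genes 50, were past 3-fold under each alternative scaling and summary that gave them a value. Dropping less specific probe sets left 33 and 8 of these genes with no value, and with those set aside 133 and 45 were past 3-fold throughout. Among the 232 and 110 genes past 3-fold, 2116 recomputed differences kept their side of the threshold, 237 fell short of it and 0 changed sign. Genes short of 3-fold were not counted here, and some of them did change sign, such as Fcgr2b without less specific probe sets. Among recomputed list medians 321 moved by less than 0.1, 101 moved by more, and 5 whose main value was at least 0.1 from 0 changed sign. Centred on housekeeping genes, the Kruppel-like and myeloid list went from -0.13 to 0.0084 and the sterol list from -0.12 to 0.0192. Without less specific probe sets, MHC class II went from 0.13 to -0.0322 and the prostaglandin list from -0.15 to 0.0294. When probe sets were averaged, matrix remodelling went from 0.15 to -0.0562. For the last 3 the cause was not tested, and the other 2 follow from the shift of all genes.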

Other observations

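Close relatives lay on opposite sides of the unstimulated level in several families, as described in the account of each list, and 3 such pairs may be set side by side. Cdc42ep2 and Cdc42ep3 differed by 4.91 and -2.60, Dusp2 and Dusp6 by 3.29 and -3.28, and Gadd45b and Gadd45a by 3.11 and -2.16. On the pair of arrays given MDP first, the same genes were at 4.78 and -2.03, 3.28 and -3.20, and 2.75 and -1.18. These pairs were chosen after their values were seen, and they leave out relatives such as Gadd45g (-1.53) and Cdc42ep4 (1.78).

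The gene annotated as Ndufb1 was at 8.98 without and 11.72 with Pam3CSK4, a difference of 2.75 by its 1 probe set, while the respiratory chain list, which did not hold it, had 0 of 21 genes past 3-fold. It was at 9.41 and 11.79 on the pair of arrays given MDP first. Whether the probe set reads that transcript was not tested. Growth factor and lipid signalling genes outside the lists, also chosen after their values were seen, included the placental growth factor Pgf (2.15) and the phospholipid phosphatase Plpp3 (2.03), and among lowered genes the epigenetic maintenance gene Dnmt1 (-1.76), the chromatin remodeller Hells (-1.23 or lower) and the licensing inhibitor Gmnn (-1.76).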
